A study of Mus musculus with 31 samples.

Results

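The cell cycle and DNA replication genes were followed in bone-marrow macrophages 2 hours after contact with LPS or live E. coli. A probe belonged to the set by its gene symbol, but the symbols were chosen with earlier results of these data known. The symbols were those of the A, B, D and E cyclins, the cyclin-dependent kinases (CDKs), the Cdkn inhibitors, and the Mcm, Orc, Rfc, E2f, Bub and Aurk families. Symbols starting with Cdc2, Cdc6, Cdc7, Cdc34 or Cdc45 were taken too, so that Cdc20, the Cdc25 family and Cdc26 entered. The alpha, delta and epsilon DNA polymerases completed the rule, with the genes Plk1, Plk4, Pcna, Mki67, Top2a, Rrm1, Rrm2, Tyms, Esco2, Lmnb1, Trim59 and Rb1. The rule found 90 of 13872 probes, which stand for 84 of 10600 named genes. Of these, 66 probes for 63 genes were tested because each group had values from 3 mice or more, against 7325 such probes on the whole array.

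The wild-type (WT) cells came from C57BL/6J mice and the other cells from mice deficient in MyD88 (MyD88-/-), an adaptor protein that relays Toll-like receptor signals, all 6 to 8 weeks old. Marrow was cultured for 8 days in medium with L929-conditioned supernatant, a source of the growth factor CSF-1, and then plated. The stimulus was 10 ng/mL of re-purified LPS from E. coli O111, or live log-phase E. coli at 1 bacterium per macrophage. Each array paired stimulated cells with mock cells of the same genotype given medium, so the mock cells of the knockout lacked MyD88 too. Each of the 4 groups (WT LPS, MyD88-/- LPS, WT E. coli and MyD88-/- E. coli) holds 4 mice, each on a dye-swapped pair of arrays, but for MyD88-/- LPS mouse 4 with a single array. Every value below is a log2 ratio to mock and not a level, and stimulated over mock is its likely direction, which the labels leave unsaid. The labels do not state whether the LPS and E. coli arrays of a genotype used the same mice or the same mock RNA. Their responses are therefore given side by side and not counted as separate evidence, and 16 mouse-level values need not be 16 animals.

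A cell enters the division cycle when D-type cyclins activate Cdk4 and Cdk6, which release E2F factors from the Rb protein and allow the genes of DNA replication to be transcribed. Origins are then licensed by the origin recognition complex, Cdc6 and the Mcm helicase, copied by the polymerases with the Pcna clamp, and the cell divides under Cdk1, the Aurora and Polo kinases and the spindle checkpoint. Cdkn proteins hold these kinases back. Marrow-derived macrophages divide as long as CSF-1 keeps cyclin D1 high, and LPS is known to stop this division.

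Promoter sequence is shown for a few members picked by hand from those with an entry in the RefSeq promoter table of build GRCm38.p6, where 69 of the 84 genes were found. Other members with an entry, such as Cdkn2d and Cdkn3, are not shown. Each run holds the 250 bases before an annotated transcription start, 5′ to 3′ on the gene's strand, and capitals mark the motif that a search found. Cdkn1a has 2 annotated starts, at chr17:29090729-29090978 and chr17:29093519-29093768, both on the plus strand. The others are Cdk4 (chr10:127063285-127063534, plus strand), Trim59 (chr3:69044743-69044992, minus strand), Mki67 (chr7:135716380-135716629, minus strand) and, as an example of a gene with E2F letters, the licensing factor Cdc6 (chr11:98907901-98908150, plus strand).
Cdkn1a, first start: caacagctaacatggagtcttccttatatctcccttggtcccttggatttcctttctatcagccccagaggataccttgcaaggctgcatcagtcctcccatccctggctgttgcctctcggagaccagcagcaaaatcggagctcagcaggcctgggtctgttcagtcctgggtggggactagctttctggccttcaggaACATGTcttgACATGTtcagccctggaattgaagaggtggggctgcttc
Cdkn1a, second start: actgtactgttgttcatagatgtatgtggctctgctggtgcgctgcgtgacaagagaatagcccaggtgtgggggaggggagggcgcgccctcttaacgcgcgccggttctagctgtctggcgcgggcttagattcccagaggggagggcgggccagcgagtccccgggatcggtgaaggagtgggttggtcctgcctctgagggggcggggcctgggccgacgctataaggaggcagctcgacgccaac
Cdk4: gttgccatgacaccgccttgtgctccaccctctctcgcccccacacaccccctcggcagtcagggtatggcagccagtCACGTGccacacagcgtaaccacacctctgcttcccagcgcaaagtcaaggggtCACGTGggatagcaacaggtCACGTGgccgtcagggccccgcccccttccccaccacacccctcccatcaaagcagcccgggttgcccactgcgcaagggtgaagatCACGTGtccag
Trim59: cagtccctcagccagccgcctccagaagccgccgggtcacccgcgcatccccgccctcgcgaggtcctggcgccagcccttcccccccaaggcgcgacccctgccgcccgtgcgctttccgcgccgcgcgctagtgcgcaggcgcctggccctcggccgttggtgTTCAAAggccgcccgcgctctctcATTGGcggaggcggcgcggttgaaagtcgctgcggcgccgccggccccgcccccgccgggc
Mki67: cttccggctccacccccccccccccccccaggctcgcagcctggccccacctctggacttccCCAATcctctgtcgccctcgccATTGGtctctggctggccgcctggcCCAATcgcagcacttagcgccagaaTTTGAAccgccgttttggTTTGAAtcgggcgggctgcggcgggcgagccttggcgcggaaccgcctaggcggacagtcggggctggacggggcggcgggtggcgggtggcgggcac
Cdc6: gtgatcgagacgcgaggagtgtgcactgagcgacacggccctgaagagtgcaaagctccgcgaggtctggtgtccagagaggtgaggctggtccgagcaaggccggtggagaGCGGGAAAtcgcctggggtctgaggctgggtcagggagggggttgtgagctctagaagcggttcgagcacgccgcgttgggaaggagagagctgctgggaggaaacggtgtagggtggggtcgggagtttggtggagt

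Capitals in the first Cdkn1a run mark 2 copies of ACATGT, the middle letters of a p53 half-site, with 4 bases between them, 49 to 34 bases before that start, and the second run holds no match to any motif searched. In Cdk4 they mark 4 copies of the E-box CACGTG, the letters that Myc and its partners bind. In Trim59 and Mki67 they mark the CHR element TTTGAA and CCAAT, read on either strand, and in Cdc6 the reverse complement of the E2F letters TTTCCCGC. The E2F search also took TTTGGCGC, TTTCGCGC and TTTGCCGC, and every search ran over both strands. E2F letters were found in 14 of the 69 members (20.3%) and in 2.16% of 27025 genes of the table, CCAAT in 59.4% against 37.5%, CHR in 21.7% against 18.3%, the E-box in 14.5% against 6.86%, and the p53 letters in 1 member and 4 genes in all (0.0148%). The p53 and E-box letters were chosen after the sequences and the values had been read. A match is a description of the letters and not a binding site.

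In WT cells given LPS, 3 of the 66 probes rose and 10 fell, and with E. coli 4 rose and 14 fell. In MyD88-/- cells 4 rose and 4 fell with LPS, and 4 rose and 5 fell with E. coli. A probe is said to rise or fall where the adjusted p of the limma fit over all 7325 probes was under 0.05. The called share was 19.7% of the members for WT LPS against 17% of all probes, 12.1% against 9.98% for MyD88-/- LPS, 27.3% against 21.2% for WT E. coli and 13.6% against 10.8% for MyD88-/- E. coli. At least 2-fold and called were 6 members in WT LPS cells (9.09%, against 6.55% of all probes), 3 in MyD88-/- LPS cells (4.55%, against 4.72%), 7 in WT E. coli cells (10.6%, against 7.66%) and 3 in MyD88-/- E. coli cells (4.55%, against 4.94%). These shares lie near the background, so the number of called members is not a result about the set. By direction, 15.2% of the members fell with LPS in WT cells against 9.04% of all probes, and 21.2% against 11.8% with E. coli. For MyD88-/- cells these shares were 6.06% against 4.7% and 7.58% against 4.42%. Trim59, Esco2 and Lmnb1 are named one by one in the rule. Without their 4 probes, a count added after the data were seen, 7 of 62 probes fell in WT LPS cells (11.3%) and 10 of 62 in WT E. coli cells (16.1%). Rises made up 4.55% against 7.99% (WT LPS), 6.06% against 5.28% (MyD88-/- LPS), 6.06% against 9.43% (WT E. coli) and 6.06% against 6.35% (MyD88-/- E. coli).

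The median member had a log2 ratio of -0.15 in WT LPS cells, where the median of all tested probes was -0.05, and -0.20 against -0.06 in WT E. coli cells. In MyD88-/- cells it was -0.05 against -0.05 with LPS and -0.12 against -0.05 with E. coli. Mice of a group differed in this median. The 4 WT LPS mice lay between -0.19 and -0.13, and the 4 MyD88-/- E. coli mice between -0.28 and 0.11, with mouse 1 above 0 and the other 3 below. The count of called probes in MyD88-/- E. coli cells was 3 without mouse 2, 5 without mouse 3 and 5 without mouse 4. Without mouse 1, on the other hand, Bub1b (-0.89, adjusted p = 0.0231 in limma) and Rrm2 (-0.78, 0.0292) gained a call there. The count was 7 in WT LPS cells without mouse 2 and 5 in MyD88-/- LPS cells without mouse 2.

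**Figure D1:**
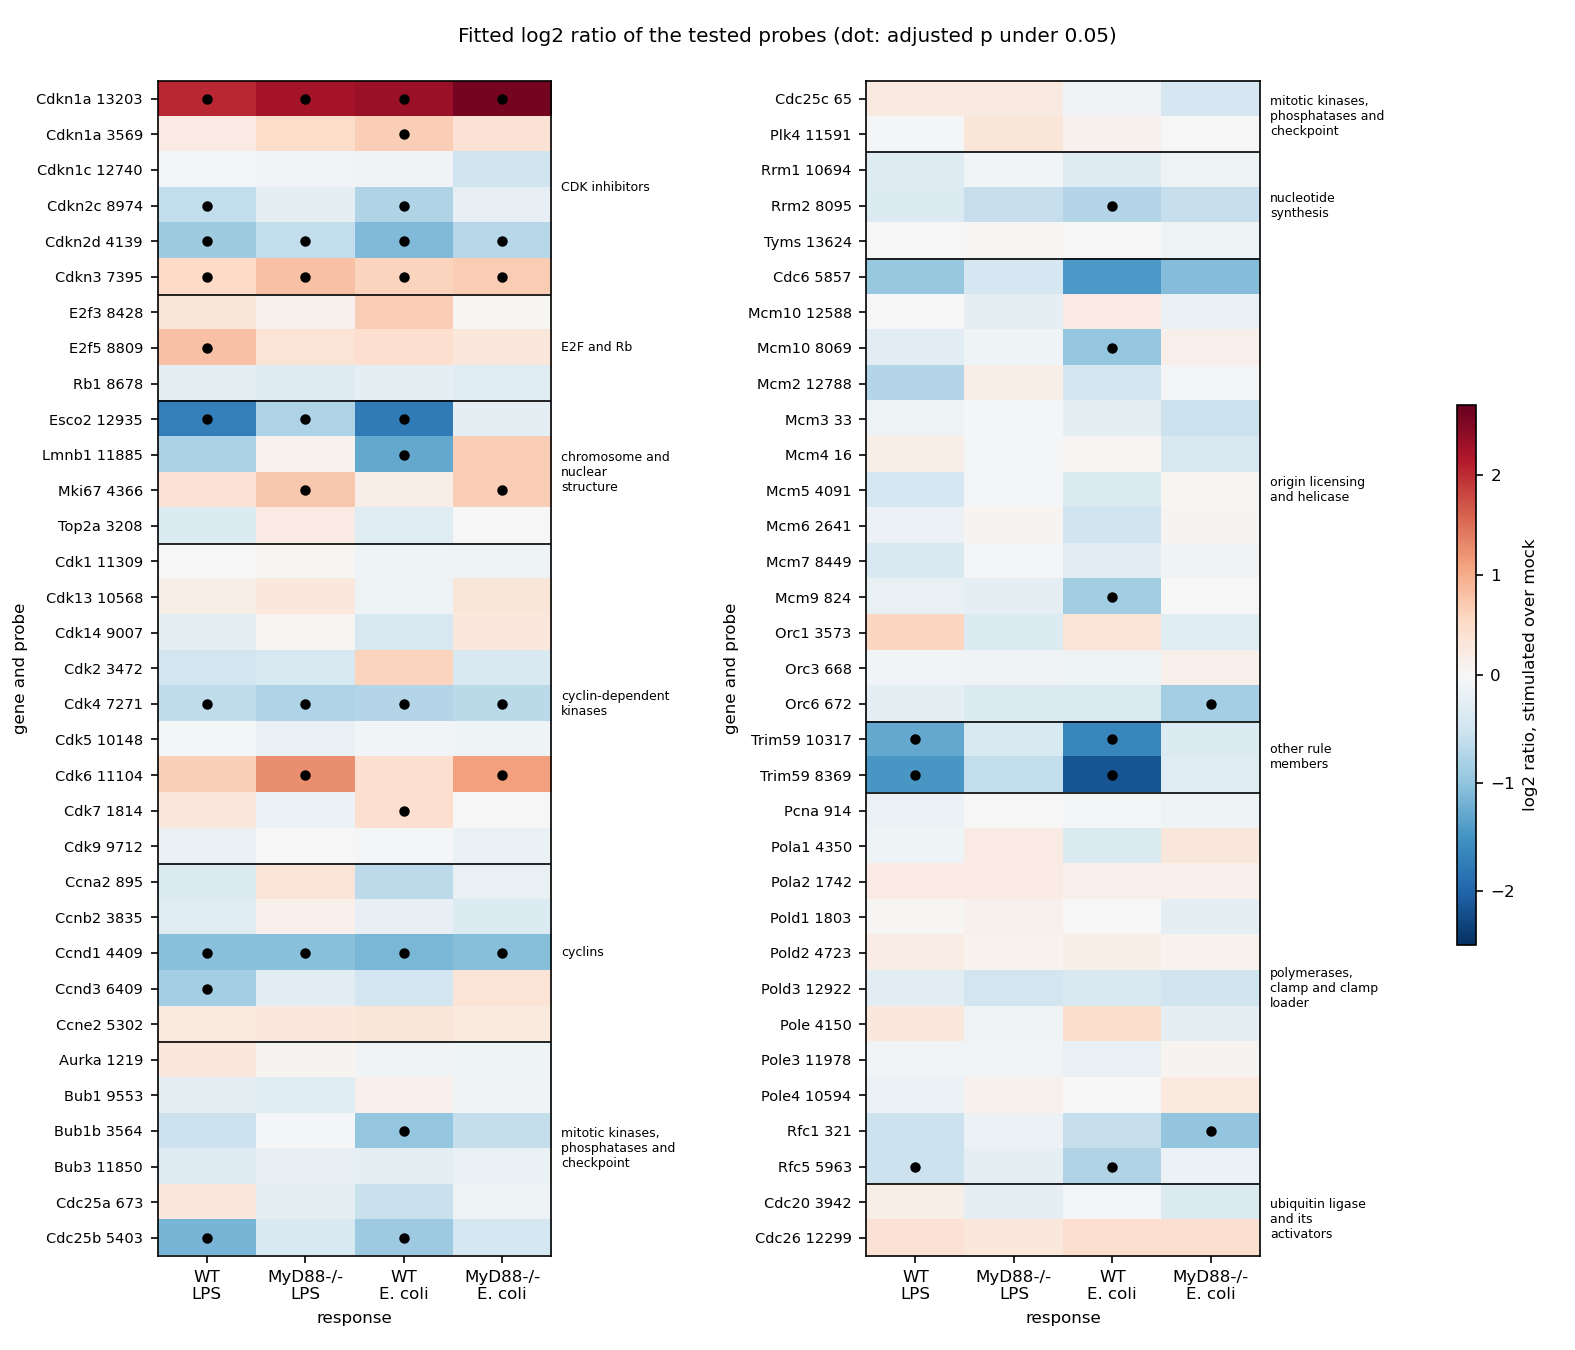
Fitted log2 ratio to mock (colour, red higher and blue lower) of the 66 tested probes, 1 row per probe grouped by role, in the 4 responses, with a dot where the adjusted p was under 0.05. Most cells are pale, and dots in all 4 columns stand beside Cdkn1a (probe 13203), Cdkn3, Ccnd1, Cdk4 and Cdkn2d.

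Among the CDK inhibitors Cdkn1a rose most. It encodes the inhibitor p21, a classical target of p53 that blocks cyclin-CDK complexes. At probe 13203 the 4 mice gave 2.15, 1.92, 2.56 and 1.51 in WT LPS cells, 2.22, 2.53, 2.05 and 2.20 in MyD88-/- LPS cells, 2.44, 2.77, 2.49 and 1.61 in WT E. coli cells, and 2.35, 2.94, 2.24 and 2.78 in MyD88-/- E. coli cells. All 16 values lay above 1.5 on the log2 scale, and the groups overlapped. The fitted ratios were 2.03 ± 0.19 (SE, n = 4 mice, adjusted p = 2.14e-06 in limma), 2.25 (1.13e-06), 2.33 (3.75e-07) and 2.58 (2.66e-07) in the same order, which is 4.10-fold to 5.97-fold. The second probe of the gene, 3569, disagreed in size, with 0.22, 0.50, 0.67 and 0.39, and passed the test in WT E. coli cells alone (adjusted p = 0.0246). That call ended without WT E. coli mouse 1 or 2 (adjusted p between 0.0829 and 0.160).

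Cdkn3, a phosphatase that inactivates CDKs by removing their activating phosphate, rose less. Its ratios were 0.54 ± 0.17 in WT LPS cells (adjusted p = 0.0373), 0.79 in MyD88-/- LPS cells (0.00572), 0.60 in WT E. coli cells (0.0192) and 0.68 in MyD88-/- E. coli cells (0.0150), and the 16 mouse values ran from 0.15 to 1.43, all above 0. The WT LPS call ended without any 1 of its 4 mice (adjusted p between 0.0577 and 0.153), the WT E. coli call without mouse 1 or 4 (0.0722 to 0.125) and the MyD88-/- E. coli call without mouse 2 or 3 (0.0739 to 0.0763). On unswapped arrays alone Cdkn3 gave 0.33 in WT LPS cells (adjusted p = 0.227), 0.27 in WT E. coli cells (0.297) and 0.56 in MyD88-/- LPS cells (0.111), and these 3 calls ended. With each group fitted alone, all 4 calls ended (adjusted p between 0.091 and 0.167).

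Of the INK4 inhibitors, which bind Cdk4 and Cdk6, Cdkn2d fell in every response and Cdkn2c in WT cells. Cdkn2d gave -1.09, -1.09, -0.68 and -0.66 in the WT LPS mice and -0.68, -0.86, -0.45 and -0.47 in the MyD88-/- LPS mice. With E. coli the WT mice gave -1.24, -1.22, -0.87 and -1.04 and the MyD88-/- mice -0.45, -0.77, -0.85 and -0.78. Every value was below 0, the genotypes overlapped with LPS, and with E. coli each WT mouse was lower than each MyD88-/- mouse. Fitted falls were -0.88 ± 0.12 (adjusted p = 9.44e-05), -0.61 (0.00319), -1.09 (9.47e-06) and -0.71 (0.000855), and the E. coli genotype difference of 0.38 ± 0.17 did not pass (adjusted p = 0.349). With each group fitted alone, the calls ended in WT LPS (adjusted p = 0.0530), MyD88-/- LPS (0.124) and MyD88-/- E. coli cells (0.0889). Cdkn2c fell in WT cells, by 0.62 with LPS (adjusted p = 0.0409) and by 0.75 with E. coli (0.0123), and gave -0.22 and -0.20 in MyD88-/- cells. Its LPS call ended without any of 7 mice, WT LPS mice 1, 2 and 4 among them (adjusted p between 0.0513 and 0.210), and its E. coli call without WT E. coli mouse 2 or 3 (0.0610 to 0.0646). Cdkn1c, the inhibitor p57, gave -0.03, -0.07, -0.08 and -0.50, and none of these passed.

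**Figure D2:**
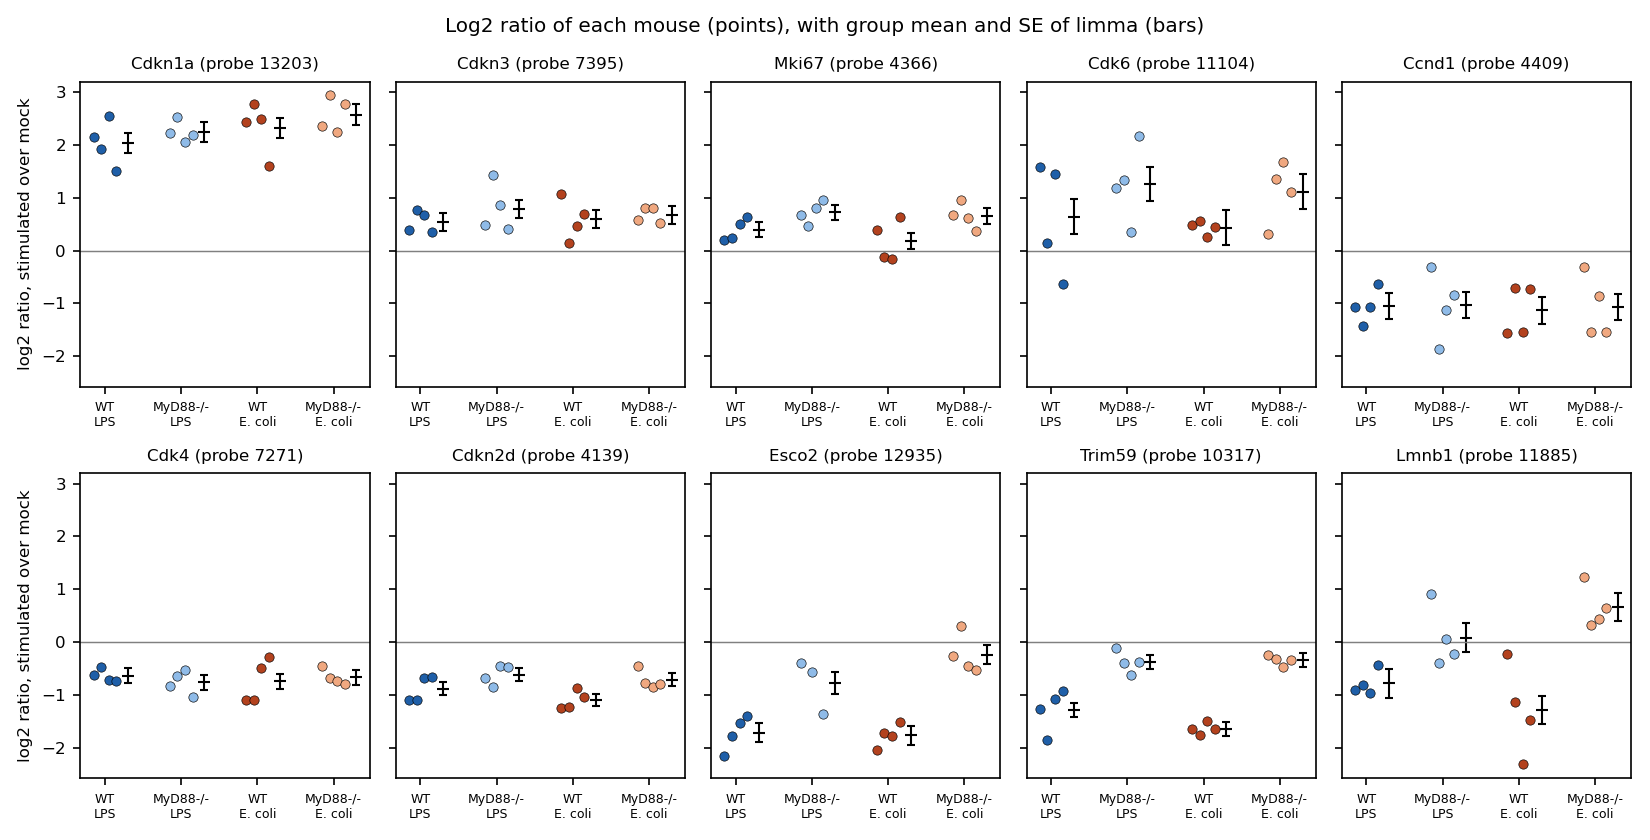
Log2 ratio to mock of each mouse (points) in the 4 groups, with the group mean and the standard error of limma (bars), for 10 probes. Cdkn1a lies above 1.5 in all 16 mouse-level values, and Ccnd1, Cdk4, Cdkn2d and Trim59 (probe 10317) lie below 0 in all 16. For Lmnb1 the 4 MyD88-/- E. coli mice lie above 0 and the 4 WT E. coli mice below 0.

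Ccnd1, the D-type cyclin through which CSF-1 drives macrophages into the cycle, fell in each group. The mice gave -1.06, -1.44, -1.07 and -0.63 (WT LPS), -0.31, -1.86, -1.13 and -0.84 (MyD88-/- LPS), -1.56, -0.71, -1.54 and -0.73 (WT E. coli) and -0.32, -1.54, -0.85 and -1.53 (MyD88-/- E. coli). All 16 values were below 0 and the groups overlapped. The fits were -1.05 ± 0.25 (adjusted p = 0.00858), -1.04 (0.0132), -1.13 (0.00409) and -1.06 (0.0106). Mouse 1 was the least changed in both MyD88-/- groups. The call ended without WT LPS mouse 2 in the first group (adjusted p = 0.0546), without mouse 2 or 3 in the second (0.0596 to 0.0944) and without mouse 2 or 4 in the fourth (0.0718 to 0.0790). With each group fitted alone, the calls ended in WT LPS (adjusted p = 0.05035), MyD88-/- LPS (0.157) and MyD88-/- E. coli cells (0.124).

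Of the other cyclins, Ccnd3 fell in WT LPS cells (-0.86 ± 0.27, adjusted p = 0.0456) and gave -0.29, -0.48 and 0.37 in the other groups. That fall did not hold without any 1 of 8 mice, among them WT LPS mice 2, 3 and 4 (adjusted p between 0.0518 and 0.184), nor with array centring. Ccna2, the S and G2 phase cyclin, gave -0.36, 0.34, -0.66 and -0.18, Ccnb2, a mitotic cyclin, -0.31, 0.13, -0.21 and -0.34, and Ccne2, which opens S phase, 0.27, 0.28, 0.33 and 0.25, in the order WT LPS, MyD88-/- LPS, WT E. coli and MyD88-/- E. coli. None of these 3 passed in any response.

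Both kinase partners of the D cyclins were measured. Cdk4 fell in every response and Cdk6 rose in MyD88-/- cells. Cdk4 gave -0.62, -0.47, -0.72 and -0.74 in the WT LPS mice, -0.84, -0.65, -0.52 and -1.04 in the MyD88-/- LPS mice, -1.09, -1.11, -0.50 and -0.28 in the WT E. coli mice and -0.45, -0.68, -0.73 and -0.80 in the MyD88-/- E. coli mice. Each of the 16 values was below 0, and no group stood apart. The fits were -0.64 ± 0.14 (adjusted p = 0.00546), -0.76 (0.00201), -0.74 (0.00145) and -0.67 (0.00537), and no call ended when any 1 mouse was left out. With each group fitted alone, every one of these calls ended (adjusted p between 0.0812 and 0.0983).

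Cdk6 rose in MyD88-/- cells, by 1.26 ± 0.33 with LPS (adjusted p = 0.0221) and by 1.11 with E. coli (0.0419), and gave 0.64 and 0.44 in WT cells. The MyD88-/- mice gave 1.19, 1.33, 0.36 and 2.17 with LPS and 0.32, 1.35, 1.68 and 1.11 with E. coli, while the WT LPS mice spread from -0.63 to 1.59 and the WT E. coli mice from 0.25 to 0.56. The genotypes overlapped for both stimuli. Leaving out mouse 1, 2 or 4 of the MyD88-/- LPS group ended the LPS call (adjusted p between 0.0706 and 0.158). The E. coli call ended without any 1 of 9 mice (0.0503 to 0.186), among them MyD88-/- E. coli mice 2, 3 and 4, and both calls ended with floor values kept (0.168 and 0.229). Without WT LPS mouse 4 the WT LPS value was 1.06 and passed (0.0424).

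Cdk7, the kinase that activates other CDKs and serves in the transcription factor TFIIH, rose in WT E. coli cells (0.45 ± 0.15, adjusted p = 0.0453). That call ended without any 1 of 11 mice, all 4 WT E. coli mice among them (adjusted p between 0.0518 and 0.167). Cdk2 had the smallest p of any member in the comparison of E. coli with LPS in WT cells. Its mice gave -0.90, -0.39, -0.44 and -0.17 with LPS and 0.74, 0.83 and 0.20 with E. coli, where 3 mice had a value, so the groups did not overlap. This held for 1 member (1.52%, against 2.65% of all probes) between the stimuli in WT cells and for 0 in MyD88-/- cells (against 2.32%). The Cdk2 difference was 1.06 ± 0.31 and did not pass (adjusted p = 0.999, unadjusted 0.00466). Cdk1, Cdk5, Cdk9, Cdk13 and Cdk14 passed in no response, with ratios between -0.40 and 0.33.

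The E2F and Rb group held 3 tested probes. E2f5, a repressor of the family, rose in WT LPS cells (0.79 ± 0.21, adjusted p = 0.0206), where the mice gave 0.48, 0.90, 1.40 and 0.37, and gave 0.38, 0.44 and 0.30 in the other groups. The call ended without WT LPS mouse 2 or 3 (adjusted p between 0.0796 and 0.123). E2f3, an activator, gave 0.33, 0.11, 0.65 and 0.02, and Rb1, the retinoblastoma protein that restrains E2F, -0.23, -0.32, -0.22 and -0.29, with no call.

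Of 13 tested probes for origin licensing and the helicase, 0 were called in WT LPS cells and 0 in MyD88-/- LPS cells by limma (3 and 0 at an unadjusted p under 0.05), 2 fell in WT E. coli cells and 1 fell in MyD88-/- E. coli cells. Mcm10, which helps the helicase to start, fell at probe 8069 in WT E. coli cells (-0.96 ± 0.23, adjusted p = 0.00721), where the mice gave -2.21, -0.47, -0.46 and -0.70, so mouse 1 lay far below the others. Its other probe, 12588, gave 0.23 there. With that group fitted alone, the call at probe 8069 ended (adjusted p = 0.157). Mcm9, a relative of the helicase that acts in recombination, fell in the same cells (-0.86 ± 0.26, adjusted p = 0.0261), a call that ended without WT E. coli mouse 1 or 4 (0.116 to 0.117). Orc6, a subunit of the origin recognition complex, fell in MyD88-/- E. coli cells (-0.85 ± 0.21, adjusted p = 0.0167), where the mice gave 0.05, -0.76, -1.08 and -1.60, and this call ended without mouse 2, 3 or 4 (0.0558 to 0.124) and on unswapped arrays alone (-0.43, 0.380).

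The core helicase subunits Mcm2 to Mcm7 gave ratios between -0.72 and 0.18, and none passed in any response. Cdc6, which loads the helicase, had the lowest ratio of this group, with -0.94 ± 0.54 in WT LPS cells, -0.42 in MyD88-/- LPS cells, -1.44 in WT E. coli cells and -1.08 in MyD88-/- E. coli cells, and passed nowhere (lowest adjusted p = 0.0778, WT E. coli). The WT LPS mice were mixed, at -2.66, 1.19, -2.35 and 0.04, while the WT E. coli mice lay close together, at -1.12, -1.40, -1.39 and -1.86. The median of the 13 probes was -0.18, -0.08, -0.35 and -0.08 in the 4 responses. In single mice it ran from -0.50 in MyD88-/- E. coli mouse 4 to 0.23 in MyD88-/- E. coli mouse 1.

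Of 11 tested probes for polymerases, the clamp and its loader, Rfc5 and Rfc1 were called, both subunits of the clamp loader. Rfc5 fell in WT cells, with mouse values of -0.65, -0.62, -0.52 and -0.40 for LPS and -0.75, -0.94, -0.98 and -0.32 for E. coli, against -0.04, -0.53, -0.07 and -0.29, and -0.04, 0.18, -0.51 and -0.24, in MyD88-/- cells. The WT and MyD88-/- mice overlapped for both stimuli. Its fits were -0.55 ± 0.14 (adjusted p = 0.0118) and -0.75 (0.00105) in WT cells, and the first call ended without WT LPS mouse 1 or 2 (0.0532 to 0.0566). With each WT group fitted alone, both calls ended (0.1055 for LPS and 0.0679 for E. coli). Rfc1 fell in MyD88-/- E. coli cells (-0.98 ± 0.29, adjusted p = 0.0396), with mice at 0.22, -1.02, -0.91 and -2.21, and that call ended without any 1 of 6 mice, among them MyD88-/- E. coli mice 2, 3 and 4 (0.0506 to 0.257). Pcna, the clamp itself, stayed between -0.15 and -0.02, and the 8 polymerase probes between -0.50 and 0.48, with no call.

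Of the genes of nucleotide synthesis, Rrm2, the regulated subunit of ribonucleotide reductase, fell in WT E. coli cells (-0.73 ± 0.19, adjusted p = 0.0143), a call lost without mouse 2 (0.0952). It gave -0.33, -0.57 and -0.58 in the other groups. Rrm1, its partner, gave -0.31, -0.07, -0.32 and -0.12, and Tyms, thymidylate synthase, between -0.13 and 0.03 at probe 13624.

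Among mitotic genes Cdc25b, the phosphatase that switches on Cdk1, fell in WT cells. Its mice gave -1.15, -1.39, -1.31 and -0.81 with LPS and -1.86, -0.47, -0.38 and -0.94 with E. coli. The MyD88-/- mice gave -0.49, -0.50, -0.28 and -0.25 with LPS, all above the WT LPS mice, and -0.38, -0.79, 0.09 and -0.67 with E. coli. The fits were -1.17 ± 0.20 (adjusted p = 0.000890) and -0.91 (0.00477) in WT cells, and -0.38 and -0.44 in MyD88-/- cells, which were not called, and the LPS genotype difference of 0.78 ± 0.29 did not pass (adjusted p = 0.424). The WT E. coli call ended with that group fitted alone (adjusted p = 0.125). Bub1b, a spindle checkpoint kinase, fell in WT E. coli cells (-0.96 ± 0.23, adjusted p = 0.00824), with mice at -0.92, -1.13, -1.09 and -0.69. Aurka, Bub1, Bub3, Cdc25a, Cdc25c and Plk4 passed in no response and stayed between -0.55 and 0.33. Cdc20 and Cdc26, of the ubiquitin ligase that ends mitosis, gave -0.36 to 0.16 and 0.28 to 0.45, with no call.

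The members with the lowest ratios in WT cells were Trim59, a tripartite-motif protein of the ubiquitin ligase family, and Esco2, the acetyltransferase that locks cohesin onto sister chromatids in S phase. Trim59 at probe 10317 gave -1.27, -1.85, -1.08 and -0.92 in the WT LPS mice, -0.10, -0.40, -0.63 and -0.37 in the MyD88-/- LPS mice, -1.64, -1.76, -1.50 and -1.65 in the WT E. coli mice and -0.24, -0.32, -0.48 and -0.34 in the MyD88-/- E. coli mice. The genotypes did not overlap for either stimulus. The WT fits were -1.28 ± 0.14 (adjusted p = 6.88e-06) and -1.64 (3.85e-07), which is 2.43-fold and 3.12-fold below mock. The MyD88-/- fits of -0.38 (0.101) and -0.34 (0.135) were not called, although all 8 MyD88-/- values lay below 0. With a dye term in the fit both MyD88-/- falls passed (0.0171 and 0.0197), and the LPS one passed without WT LPS mouse 2 (0.0426). Probe 8369 gave -1.46 (adjusted p = 0.00252) and -2.16 (6.78e-05) in WT cells, and -0.61 and -0.31 in MyD88-/- cells, with no call in the latter. Its WT LPS call ended with that group fitted alone (adjusted p = 0.1025).

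Esco2 gave -2.15, -1.78, -1.52 and -1.41 in the WT LPS mice and -2.03, -1.72, -1.77 and -1.52 in the WT E. coli mice. The MyD88-/- mice gave -0.40, -0.57 and -1.36 with LPS, where 3 mice had a value, and -0.26, 0.31, -0.46 and -0.53 with E. coli. WT and MyD88-/- mice did not overlap for either stimulus, although MyD88-/- LPS mouse 3 came close to the highest WT value. Esco2 fell in WT cells by 1.71 ± 0.18 with LPS (adjusted p = 1.10e-05) and by 1.76 with E. coli (7.15e-06), and in MyD88-/- LPS cells by 0.78 (0.0277). Leaving out mouse 2 or 3 of that last group ended its call (0.0591 to 0.258). The MyD88-/- E. coli value was -0.24 (adjusted p = 0.504).

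Lmnb1, lamin B1 of the nuclear lamina, fell in WT E. coli cells (-1.29 ± 0.27, adjusted p = 0.00288), where its mice gave -0.22, -1.14, -2.32 and -1.48. That call ended with the group fitted alone (adjusted p = 0.0923). The WT LPS mice gave -0.91, -0.82, -0.96 and -0.44, with a fit of -0.78 that was not called (0.0599) but passed with a dye term (0.0364), with a value required in every mouse (0.0423) and without any 1 of 3 mice of other groups (0.025 to 0.0444). The MyD88-/- mice gave 0.92, -0.40, 0.05 and -0.22 with LPS and 1.24, 0.32, 0.44 and 0.65 with E. coli, with fits of 0.09 (0.894) and 0.66 (0.149). Mki67, the chromosome-coating protein Ki-67 used as a marker of dividing cells, rose in MyD88-/- cells, where the mice gave 0.68, 0.47, 0.80 and 0.95 with LPS and 0.68, 0.96, 0.61 and 0.36 with E. coli. These rises were 0.73 ± 0.15 (adjusted p = 0.00397) and 0.66 (0.00769), the second lost without MyD88-/- E. coli mouse 2 (0.0659), while WT cells gave 0.40 and 0.19, not called. With each group fitted alone, both MyD88-/- calls ended (0.0862 with LPS and 0.132 with E. coli). The WT LPS value passed with a dye term (0.0162), and the genotypes overlapped for both stimuli. The Mki67 genotype difference did not pass, at 0.33 ± 0.21 with LPS (adjusted p = 0.684) and 0.47 with E. coli (0.339). Top2a, the topoisomerase that separates chromosomes, gave -0.34, 0.22, -0.30 and 0.01 with no call.

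The genotype was compared directly as the MyD88-/- response minus the WT response. With E. coli 3 of the 66 probes were higher in MyD88-/- cells and 0 lower, a share of 4.55% against 0.751% of all probes called in either direction, 0.205% called higher and 0.546% called lower. The unadjusted p was under 0.05 for 14 members (21.2%), against 13.3% of all probes. Trim59 (probe 10317) differed by 1.30 ± 0.19 (adjusted p = 0.00246), Esco2 by 1.53 ± 0.26 (0.00898) and Lmnb1 by 1.95 ± 0.38 (0.0229). These 3 genes reached the rule as named symbols after earlier results of these data were known, so their calls are no independent support. The first 2 calls held without any 1 mouse. The Lmnb1 call ended when any 1 of 5 mice was left out, namely mice 2, 3 and 4 of the WT group and mice 1 and 4 of the MyD88-/- group (adjusted p between 0.0525 and 0.0834). The second Trim59 probe differed by 1.85 ± 0.41 and missed the threshold (0.0544), and the largest difference in the other direction was Cdk2 at -0.98 (0.185).

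With LPS 0 of 66 members and 0.287% of all probes (0.0683% higher, 0.218% lower) differed between genotypes in limma, and 7 members (10.6%) had an unadjusted p under 0.05, against 8.91% of all probes. Trim59 (probe 10317) came closest at 0.90 ± 0.19 (adjusted p = 0.0673), and it passed without WT LPS mouse 4 (0.0487), with a dye term in the fit (0.00298) and where a value in every mouse was required (0.0384). Esco2 differed by 0.94 (0.278), Lmnb1 by 0.87 (0.526) and Cdc20 by -0.38 (0.514). All mice of 1 genotype lay above all mice of the other for 10 members with E. coli (15.2%, against 9.08% of all probes) and for 5 with LPS (7.58%, against 6.68%). With E. coli these included Trim59 (probes 10317 and 8369), Esco2 and Lmnb1, and with LPS Trim59 (probe 10317), Esco2 and Lmnb1. Those genes were named in the rule after earlier results of these data were known, so neither count is independent support.

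The stimuli were compared as the E. coli response minus the LPS response. Of 66 members, 0 passed in limma for the difference between the stimuli in WT cells (background 0%, 1 member with an unadjusted p under 0.05), 0 in MyD88-/- cells (0%, 0 members) and 0 in the interaction of genotype and stimulus (0%, 1 member). The smallest adjusted p in these comparisons was 0.999, 1.00 and 1.00 when rounded. For Lmnb1 the interaction was 1.08 ± 0.54 and for Trim59 the WT difference was -0.36 ± 0.19, both not called.

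**Figure D3:**
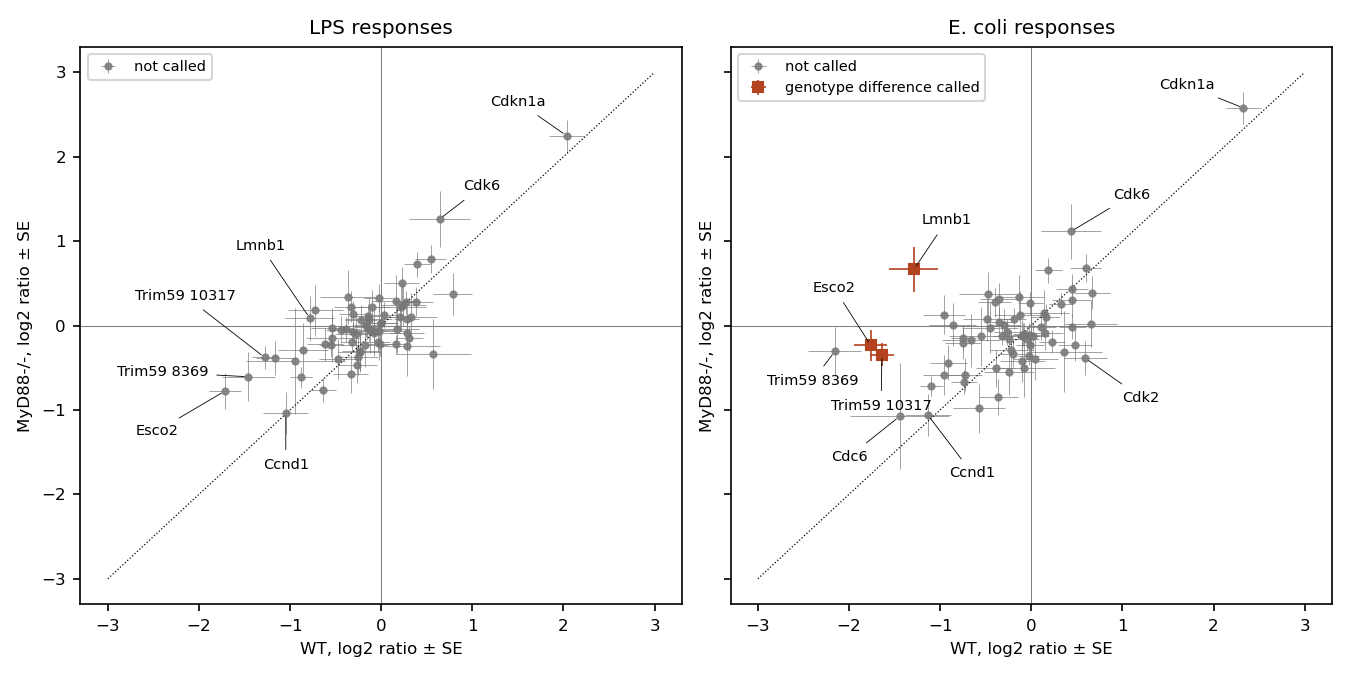
Log2 ratio to mock in MyD88-/- cells (vertical axis) against WT cells (horizontal axis) for the 66 tested probes, with standard errors, for LPS (left) and E. coli (right). Points on the dotted line have the same ratio in both genotypes, and the squares mark Trim59 (probe 10317), Esco2 and Lmnb1, whose E. coli responses differed by 1.30, 1.53 and 1.95.

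Cell cycle genes outside the rule were counted from lists of textbook genes, which were also chosen with earlier results of these data known. Each listed gene was counted by 1 probe, while the shares of all probes count every tested probe. Of 33 S phase and replication genes on the array 27 were tested. In WT cells 0 rose and 10 fell with LPS (37%, against 9.04% of all probes) and 0 rose and 12 fell with E. coli (44.4%, against 11.8%), with list medians of -0.49 and -0.52. In MyD88-/- cells 2 fell with each stimulus (7.41%, against 4.7% and 4.42% of all probes), with medians of -0.16 and -0.23. The unadjusted p was under 0.05 for 13 and 12 of the 27 in WT cells and for 5 and 10 in MyD88-/- cells, with LPS first. Over all probes it was under 0.05 for 29.2% and 32.9% in WT cells and for 21.9% and 22.2% in MyD88-/- cells. Dnmt1, the maintenance DNA methyltransferase, gave -0.93 and -0.75 in WT cells, Dbf4, the activator of the replication kinase Cdc7, -0.84 and -0.99, Slbp, which binds histone messages, -0.62 and -0.85, and Gmnn, the licensing inhibitor geminin, -0.88 and -0.91, all called, with LPS first. In a check added after the data were seen, leaving out 1 mouse brought the count of falls down to 6 in WT LPS cells (without mouse 1) and to 7 in WT E. coli cells (without mouse 1). In MyD88-/- cells it ran from 1 to 3 with LPS and from 0 to 4 with E. coli. The genotype difference passed for 0 of the 27 with either stimulus. The unadjusted p was under 0.05 for 6 with LPS and 10 with E. coli, against 8.91% and 13.3% of all probes. Medians were 0.31 for LPS and 0.18 for E. coli, against 0.01 and 0.02 over all probes.

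Of 41 mitosis genes on the array 32 were tested. In WT cells 6 fell with LPS (18.8%) and 9 with E. coli (28.1%), in MyD88-/- cells 2 (6.25%) and 1 (3.12%), and 0 rose in any of the 4 responses. The shares of all probes that fell were 9.04%, 11.8%, 4.7% and 4.42% in that order. The falls went down to 2 in WT LPS cells without mouse 3, to 0 in MyD88-/- LPS cells without mouse 3 and to 0 in MyD88-/- E. coli cells without mouse 4. Their ranges were 2 to 7 and 7 to 10 in WT cells and 0 to 2 and 0 to 3 in MyD88-/- cells. Ccnf, an F-box cyclin, fell by 1.21 in WT LPS cells and by 1.53 in WT E. coli cells, and the centromere protein Cenpf by 0.60 and 0.56. The E. coli and the LPS genotype difference passed for 0 of the 32 (6 and 3 at an unadjusted p under 0.05, against 13.3% and 8.91% of all probes).

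**Figure D4:**
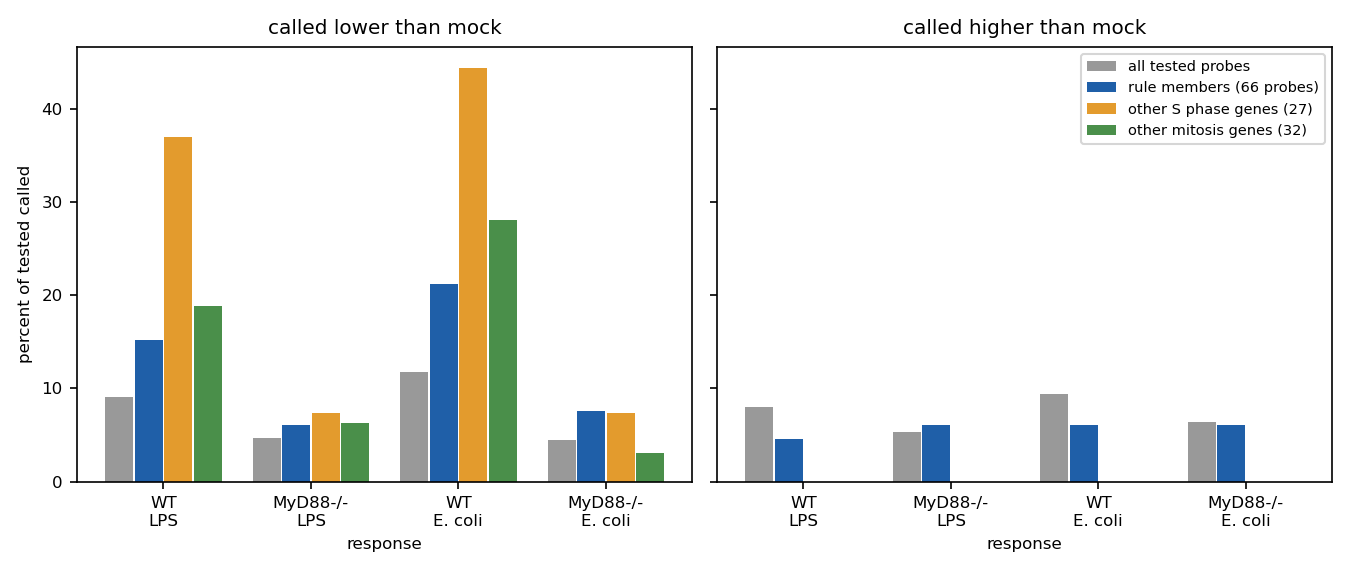
Percent of tested probes or genes called lower (left) and higher (right) than mock in the 4 responses, for all tested probes, the 66 member probes, 27 other S phase genes and 32 other mitosis genes. In WT cells 37% and 44.4% of the other S phase genes were lower with LPS and E. coli, and none of the S phase or mitosis genes was called higher.

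Of 28 regulators of growth and arrest on the array 24 were tested, and in WT cells 6 rose and 3 fell with LPS and 6 rose and 2 fell with E. coli. In MyD88-/- cells 3 rose and 1 fell with each stimulus. The rises were 25% of the list in each WT response, against 7.99% of all probes with LPS and 9.43% with E. coli, and 12.5% in each MyD88-/- response, against 5.28% and 6.35%. Without WT LPS mouse 1 the falls in WT LPS cells went from 3 to 0, and without MyD88-/- LPS mouse 1 those in MyD88-/- LPS cells from 1 to 0. Myc, the growth transcription factor, rose by 2.26 with LPS and by 2.26 with E. coli in WT cells and gave 0.10 and -0.60 in MyD88-/- cells. Its E. coli genotype difference was -2.86 ± 0.61 (adjusted p = 0.0405), a call that ended without any 1 of 10 mice (0.0541 to 0.116). The antiproliferative Btg2 rose in WT cells by 2.06 and 2.60 and gave 0.47 and 0.84 in MyD88-/- cells, while its relative Btg1 rose in all 4 responses (1.33, 0.90, 1.19 and 0.70). The genotype difference passed for 0 of the 24 with LPS (against 0.287% of all probes) and for 1, Myc, with E. coli (4.17%, against 0.751%). The genotype differences of Btg2 and the LPS one of Myc therefore did not pass. Csf1, the growth factor itself, rose by 3.50, 3.84, 4.30 and 3.38, and its receptor Csf1r gave -0.28, 0.19, -0.35 and 0.31 with no call. Mdm2, a p53 target like Cdkn1a, rose by 0.90 and 0.68 in WT cells and by 0.70 in MyD88-/- E. coli cells, where each E. coli call ended without any 1 of 3 mice (adjusted p between 0.0674 and 0.125 for WT and between 0.0924 and 0.113 for MyD88-/-). Ccng1, another, gave -0.33, -0.11, -0.62 and -0.52 with no call.

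The 12 tested members with E2F letters in the promoter were Cdc6, Cdk1 and Cdk2 among others. Of these 12, 0 were called in any response in limma, with 3, 0, 4 and 0 at an unadjusted p under 0.05, and their medians were -0.12, -0.05, -0.19 and -0.03. Over all probes 17%, 9.98%, 21.2% and 10.8% were called. The other 39 tested members with a promoter in the table had 2 rises and 7 falls in WT LPS cells and 3 rises and 10 falls in WT E. coli cells, with medians of -0.23 and -0.24. They had 4 rises and 2 falls in MyD88-/- LPS cells and 4 rises and 4 falls in MyD88-/- E. coli cells. The motif groups were formed after the values had been read, and no test was made of them.

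The 24 member probes left untested carried too few values. Ccne1, Ccnd2, Cdkn1b, Cdkn2a, Cdkn2b (2 probes), E2f1, Cdc45, Cdc7, Orc2, Orc4 (2 probes), Orc5, Aurkb and Rfc4 were among them, with Ccna1, Cdk3, Cdk16, Cdk18, Cdk20, E2f6, Pole2, Rfc3 and the second Tyms probe. Where 3 mice of the groups compared had a value, a fit on those groups gave no call, the lowest adjusted p being 0.111 for Cdkn2b (probe 1019) in MyD88-/- E. coli cells, at -0.84 ± 0.19. Cdkn1b, the inhibitor p27, was measured in all 4 WT LPS mice, which ran from -2.51 to 1.73, so that no direction could be read.

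The labelled cell type was checked against its markers. Of 11 macrophage markers on the array 9 were tested, and Adgre1 and Lyz2 gave ratios between -0.24 and 0.09 with no call. Msr1 rose in all 4 responses (0.52, 0.79, 0.48 and 0.91), Fcgr1 fell in WT LPS, MyD88-/- LPS and WT E. coli cells (-0.47, -0.47 and -0.58), and Cd68 fell in WT LPS cells (-0.50). A ratio to mock gives no level, so the markers show the arrays' response and not how pure the cultures were. Of the markers of other cells, 2 of 7 for T cells, 5 of 7 for B cells, 3 of 9 for neutrophils, 1 of 4 for erythroid cells and 0 of 8 for stromal cells had enough values. The T-cell list marker Il7r fell in each response (-0.96, -0.62, -1.13 and -0.86), Cd79a fell in MyD88-/- LPS cells (-1.05) and Ighm rose in MyD88-/- E. coli cells (0.75). The other tested T-cell marker was called in no response, and the median of the 2 was -0.40, -0.15, -0.77 and -0.54. The part of these other cells in the results above was not tested. In these bulk samples fewer cells of a kind and less message per cell cannot be told apart.

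Dye pairs of a mouse agreed unequally. Over all probes the 15 pairs correlated between 0.26 and 0.71, and over member probes between -0.08 in WT LPS mouse 4 and 0.76, with 14 of 15 above 0. Without WT LPS mouse 4 the WT LPS count of called members was 11 in place of 13, and without MyD88-/- LPS mouse 4, the mouse with 1 array, the MyD88-/- LPS count was 7 in place of 8. An array held between 5564 and 10497 values, and responses had median standard errors between 0.20 and 0.21. Within a group the labels name separate mice, so p-values measure the spread between mice.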

How the data were processed

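Spotted 2-colour arrays compared stimulated with mock macrophages, 31 arrays in all, 15 of them with the dyes swapped. The log2 ratios were deposited by the authors as 1 normalized table, and per the labels' protocols the arrays were scanned and read with GenePix Pro 3.0 and handled in BASE and GeneSpring. The normalization itself, the turning of swapped arrays and the direction of the ratio are not given in the sources used here. Values at the floor of the table (-6.64, 1.63% of values) were treated as missing. Dye pairs were averaged to 16 mouse-level values.

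A probe was tested where at least 3 of 4 mice in each of the 4 groups had a value. limma 3.58.1 in R 4.3.3 fitted 1 mean per group over all 7325 such probes, with Benjamini-Hochberg adjustment per comparison and two-sided tests. Figures and counts were made in Python 3.11.15. The fit was tested on simulated data. Of 13872 probes, 11480 carried 1 gene symbol, 50 several and 2342 none, and the last 2 kinds were not named. Arrays carry no counts, so the number of mice limits the precision.

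The members, the role groups, the lists of other cell cycle genes and of cell type markers and the tests were chosen with earlier results of these data known. Full statistics were given for up to 12 rises and 12 falls of largest change per response, and for called differences plus the 3 of smallest p each way. Other genes named were chosen after their values were seen. The main fit did not pair same-numbered mice of a genotype across stimuli. After each probe's group mean was taken off, their values correlated between -0.06 and 0.14, and the same number matched best for 2 of 8. With arrays this noisy, that cannot show whether the numbers pair the mice.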

Additional observations from a re-analysis of the deposited data

Results flagged for a closer look

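Of 120 groups of 4 mice checked over 32 named probes, 2 held a mouse far from the other 3, where chance gives about 1 in 20. For Mcm10 (probe 8069) WT E. coli mouse 1 gave -2.21, against -0.70, -0.47 and -0.46 in the others. For Orc6 (probe 672) WT LPS mouse 3 gave -0.49, against -0.18, -0.18 and -0.17.

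For 3 probes the E. coli response itself differed between genotypes in limma. MyD88-/- minus WT was 1.30 for Trim59 (probe 10317), 1.53 for Esco2 and 1.95 for Lmnb1.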

How the results depend on the processing

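No result changed direction with its call. Of 51 called member values, 22 lost their call without some 1 mouse. Uncalled values were checked only for probes with a call or picked for full statistics, 111 values and not every uncalled member value. For these, 13 of 753 fits under other settings and 9 of 1776 without 1 mouse passed. Among them were, in WT LPS cells, Ccnb2 (-0.64, adjusted p = 0.00632) and Bub1b (-0.92, 0.0185) on unswapped arrays, and Cdc20 (0.0245) and Rrm2 (0.0269) in MyD88-/- E. coli cells with the dye term. Unswapped arrays alone also ended the calls of Cdkn2c in WT LPS cells (-0.34, 0.284), Cdkn1a probe 3569 in WT E. coli cells (0.44, 0.161), Cdk7, Mcm9, Rfc1 and both of Cdk6. Fitting the groups of a comparison alone, which leaves fewer mice to estimate the spread, called 4 members in WT LPS cells, 1 in MyD88-/- LPS cells, 8 in WT E. coli cells and 1 in MyD88-/- E. coli cells, in place of 13, 8, 18 and 9. Asking for a change of at least 2-fold as well left 6, 3, 7 and 3. Without 1 mouse at a time the counts ran from 7 to 15, 5 to 9, 14 to 19 and 3 to 11 in the same order, from 0 to 1 for the LPS genotype difference and from 2 to 4 for the E. coli genotype difference. With the dye as a term and each dye pair as a random block, 1 member passed for the LPS genotype difference and 5 for the E. coli genotype difference, and with a value in every mouse 1 passed for the LPS difference. The cause was not tested. The Lmnb1 difference also missed the threshold with arrays centred and scaled (adjusted p = 0.0506), on unswapped arrays alone (0.177) and with the groups of the comparison fitted alone (0.156). With the mouse number as a replicate block, 0 members passed for either stimulus difference or for the interaction, as without it. Other scalings and filters kept each response count within 1.5 times. A ratio at the floor was treated as missing, and a probe with values from under 3 mice in any group was not tested, which left 24 member probes untested.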
